A study of Mus musculus with 36 samples.

Results

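H3K9me3, the trimethylated form of lysine 9 on histone H3, was compared by chromatin immunoprecipitation with sequencing (ChIP-seq) between vascular smooth muscle cells with and without cystathionine gamma-lyase (CSE). The cells were primary cultures from mouse aorta, taken from C57BL/6N wild-type mice or from mice lacking CSE in the whole body, a constitutive loss in every tissue rather than one made in smooth muscle. All cultures, controls included, received 1 µM angiotensin II for 24 h, so no untreated state was measured. The labels give 3 immunoprecipitated H3K9me3 libraries of knockout and 3 of wild-type cells, and do not say whether these came from separate animals or cultures. Described here are all 5374 H3K9me3 peaks in the authors' deposited comparison of knockout with wild type, out of 13958 peaks in the tables of 3 histone marks (8115 for H3K9ac and 469 for H3K4me3).

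H3K9me3 marks heterochromatin, the condensed part of the genome. Histone methyltransferases write it, HP1 proteins bind it, and it commonly spreads in broad domains over repeats, gene deserts and clusters of genes that the cell type does not use. It also sits on 1 parental copy of many imprinted loci and can silence genes of other lineages. CSE, encoded by Cth, produces hydrogen sulfide, a gas that relaxes vessels, while angiotensin II is a peptide hormone that contracts them.

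Each peak has 1 value for the knockout and 1 for the wild type in the authors' deposited table, a log2 mean of normalised reads, and no value for any single library. The depth of each library and the spread between replicates are therefore unknown, and a difference can be weighed only by the authors' own p and false discovery rate (FDR). Only peaks with a p under 0.05 are listed, and none of the listed peaks has an FDR under 0.05 (0 of 5374, 0% called). At an FDR under 0.25 there are 6 peaks (0.112%), all higher in the knockout, and at an FDR under 1 there are 117 (2.18%), of which 105 were higher and 12 lower. The smallest listed p is 0.00011, and peaks with a p under 0.0001 are not in the list used here. These counts therefore cover listed peaks only and cannot tell how many peaks of the whole comparison would pass. The directions given here are thus those of peaks selected on an unadjusted p, and the labels and files do not state how the libraries were normalised, on which the split of directions can depend. No listed peak was annotated to Cth, so these peaks hold no check of the knockout, and none was annotated to any of 20 contractile smooth muscle genes, so they hold no check of cell identity either.

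Higher and lower peaks differed at transcription start sites, where the DNA under them can be set side by side. The sequences are the 250 bases upstream of 9 RefSeq start sites (build GRCm38.p6, printed 5′ to 3′ on the strand of the gene), with every CG dinucleotide in capitals. The first 5 lay under peaks higher in the knockout and the last 4 under peaks lower in the knockout, taken by smallest p among those with at least 60 of these bases under the peak and with none inside an annotated RefSeq gene, so that start sites within a gene are left out. Predicted genes named by a number were left out on the higher side and kept on the lower side, where few start sites remained. CpG-dense start sites (CpG islands) are typical of housekeeping and developmental genes, and CpG-poor ones of tissue-restricted genes.
Lonrf2 (higher; chr1:38836688-38836937, minus strand): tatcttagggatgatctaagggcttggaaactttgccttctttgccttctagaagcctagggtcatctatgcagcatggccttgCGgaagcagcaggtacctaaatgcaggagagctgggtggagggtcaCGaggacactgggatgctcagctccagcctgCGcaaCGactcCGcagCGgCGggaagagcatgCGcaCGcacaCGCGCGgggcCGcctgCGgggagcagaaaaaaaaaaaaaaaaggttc
Lmo1 (higher; chr7:109175208-109175457, minus strand): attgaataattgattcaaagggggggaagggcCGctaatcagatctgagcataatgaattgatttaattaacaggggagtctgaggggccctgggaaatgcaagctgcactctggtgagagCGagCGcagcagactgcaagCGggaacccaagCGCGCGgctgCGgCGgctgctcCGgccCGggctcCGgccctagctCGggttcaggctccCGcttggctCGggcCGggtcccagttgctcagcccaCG
Trim44 (higher; chr2:102400901-102401150, minus strand): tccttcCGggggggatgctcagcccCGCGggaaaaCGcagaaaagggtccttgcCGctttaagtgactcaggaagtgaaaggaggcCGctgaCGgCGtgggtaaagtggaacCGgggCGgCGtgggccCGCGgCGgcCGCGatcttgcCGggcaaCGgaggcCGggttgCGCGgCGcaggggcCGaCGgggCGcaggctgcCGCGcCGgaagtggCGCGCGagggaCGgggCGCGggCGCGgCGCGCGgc
Tunar (higher; chr12:105336344-105336593, plus strand): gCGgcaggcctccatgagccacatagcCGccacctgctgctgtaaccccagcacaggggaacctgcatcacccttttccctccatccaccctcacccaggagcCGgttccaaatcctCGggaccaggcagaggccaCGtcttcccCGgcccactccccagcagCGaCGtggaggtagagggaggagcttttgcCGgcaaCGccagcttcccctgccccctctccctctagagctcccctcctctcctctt
Slc6a11 (higher; chr6:114130991-114131240, plus strand): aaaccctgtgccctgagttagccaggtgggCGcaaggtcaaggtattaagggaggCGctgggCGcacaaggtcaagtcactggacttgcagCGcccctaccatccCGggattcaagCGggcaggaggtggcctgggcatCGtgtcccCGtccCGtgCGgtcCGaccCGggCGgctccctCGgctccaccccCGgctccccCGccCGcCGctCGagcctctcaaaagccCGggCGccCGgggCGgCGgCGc
Tshz2 (lower; chr2:169632259-169632508, plus strand): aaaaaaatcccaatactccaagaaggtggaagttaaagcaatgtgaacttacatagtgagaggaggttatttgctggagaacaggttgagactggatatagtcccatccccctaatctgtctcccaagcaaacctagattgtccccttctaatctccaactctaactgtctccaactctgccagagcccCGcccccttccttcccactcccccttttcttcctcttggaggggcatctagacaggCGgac
Tnfsf11 (lower; chr14:78308044-78308293, minus strand): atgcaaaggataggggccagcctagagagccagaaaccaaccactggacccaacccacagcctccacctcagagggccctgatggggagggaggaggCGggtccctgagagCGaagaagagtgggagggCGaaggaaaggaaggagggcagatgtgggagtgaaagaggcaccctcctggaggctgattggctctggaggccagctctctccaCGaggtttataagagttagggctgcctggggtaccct
Gm36844 (lower; chr6:136454721-136454970, minus strand): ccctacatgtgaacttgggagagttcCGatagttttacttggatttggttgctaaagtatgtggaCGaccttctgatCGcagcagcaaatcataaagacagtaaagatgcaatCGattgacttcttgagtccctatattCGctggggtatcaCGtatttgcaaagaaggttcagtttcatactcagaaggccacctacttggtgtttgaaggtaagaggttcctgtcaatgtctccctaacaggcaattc
Gm30726 (lower; chr16:76548545-76548794, plus strand): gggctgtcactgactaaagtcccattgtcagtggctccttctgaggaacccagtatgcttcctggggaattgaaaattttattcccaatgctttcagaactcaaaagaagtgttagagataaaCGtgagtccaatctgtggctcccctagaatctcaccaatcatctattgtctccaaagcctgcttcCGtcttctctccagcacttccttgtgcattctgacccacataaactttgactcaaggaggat
The 5 upstream stretches under higher peaks held 14 (Lonrf2), 17 (Lmo1), 39 (Trim44), 10 (Tunar) and 25 (Slc6a11) CG dinucleotides. Those under lower peaks held 2 (Tshz2), 4 (Tnfsf11), 6 (Gm36844) and 2 (Gm30726). These 9 are examples and not the whole contrast: start windows under higher peaks that the choice left out include CpG-poor ones, such as those of A530040E14Rik with 1 and Dpp6 with 6 CpG in 300 bases. Lonrf2 encodes a RING finger protein, Lmo1 a LIM-only transcription cofactor, Trim44 a tripartite motif protein, Tunar a neural long noncoding transcript and Slc6a11 a GABA transporter. Tshz2 encodes a teashirt zinc-finger factor and Tnfsf11 the cytokine RANKL, while Gm36844 and Gm30726 are predicted genes.

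Of all listed peaks, the knockout had the larger value in 3278 (61%) and the smaller in 2096 (39%). The median higher peak had 13.0 normalised reads in the knockout against 1.27 in the wild type, a median difference of 3.21 on the log2 scale or 9.25-fold. The median lower peak had 1.16 reads in the knockout against 10.9 in the wild type, a median log2 difference of -3.05. Listed differences were therefore large in ratio and small in reads, and the smallest absolute log2 difference in the authors' deposited table was 1.71. In 1030 higher peaks the wild type, and in 547 lower peaks the knockout, stood at the lowest value of its column (0.732 and 0.747 reads), together 29.3% of peaks. For such peaks the log2 difference depends on that floor, and single peaks of this kind are given by their reads. Medians over groups of peaks include them unless stated. Without them the median log2 difference was 2.97 over 2248 higher peaks and -2.91 over 1549 lower peaks.

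**Figure D1:**
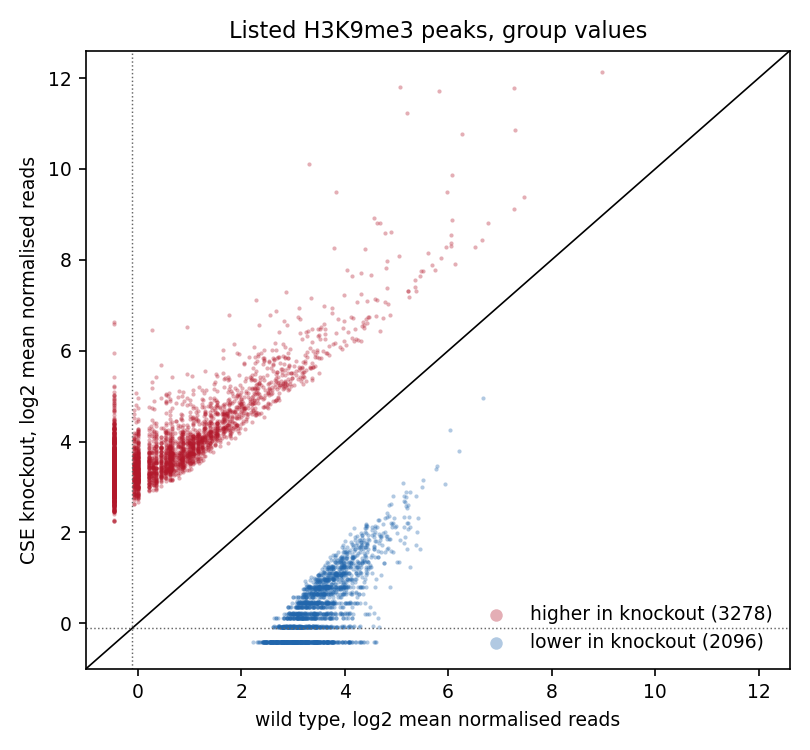
Knockout (y axis) against wild-type (x axis) log2 mean normalised reads of each listed H3K9me3 peak, red where higher and blue where lower in the knockout, with the diagonal of equal values and dotted lines at the floor limit of -0.1. The empty band along the diagonal is where peaks with a p of 0.05 or more would lie, and the 15 peaks with an overall value of 8 or more all lie above the diagonal.

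Strong and broad peaks were almost always higher in the knockout, while the weakest and narrowest were split nearly evenly or leaned lower. The share higher was 41.9% of the 360 peaks with an overall log2 value under 2, 63.1% of the 962 peaks between 3 and 3.5, 85.1% of the 350 between 4 and 5, and 100% of the 15 at 8 or more. By width it was 46.4% of 1135 peaks under 300 bp, 75.6% of 759 between 600 and 1000 bp, 91.9% of 272 between 1000 and 2000 bp, and 100% of the 19 peaks of 4000 bp or more. Signal and width go together, but each went with direction where the other was held low. Among peaks under 1000 bp, 82.4% of the 205 with a value of 4 or more were higher against 57.7% of the 4820 with a lower value, and among peaks with a value under 4, 29 of the 30 that reached 1000 bp were higher. The share also followed the p: 86.5% of the 111 peaks with a p under 0.001 were higher, against 52.3% of the 859 with a p from 0.04 to 0.05. The part of the depth of the libraries or of their normalisation in this gradient was not tested.

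**Figure D2:**
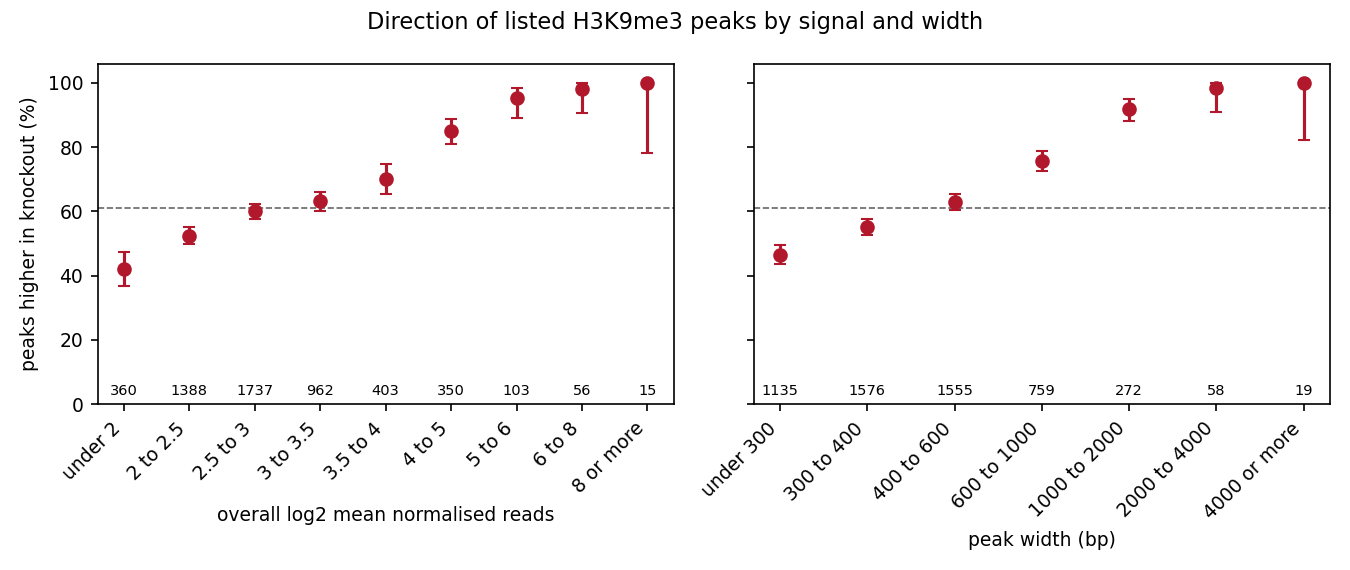
Share of listed H3K9me3 peaks higher in the knockout (y axis, percent) by overall log2 mean normalised reads (left) and by peak width in bp (right), with 95% exact binomial intervals that cover counting error only, the number of peaks above each axis label and a dashed line at the share over all peaks. The share climbs from 41.9% to 100% with signal and from 46.4% to 100% with width.

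The 15 peaks of highest overall value fell into narrow and broad ones. There were 8 under 1200 bp, with log2 differences of 3.52 to 6.78, and 7 over 3000 bp, with log2 differences of 1.84 to 3.79. An intron of Filip1l, which encodes a filamin A-interacting protein, carried the narrow peak with 2402 reads in the knockout and 36.8 in the wild type in the authors' deposited table (chromosome 16, 57391115 to 57391800, p = 0.00604). Upstream of Hic2, a transcriptional repressor, a peak of 381 bp had 1098 reads against 9.99 in the authors' deposited table. Another stood near the start of Cdk8, the kinase of the Mediator complex, with 1746 against 76.6 reads in the authors' deposited table, and another in the 3′ UTR of Lars2, the mitochondrial leucyl-tRNA synthetase, with 719 against 62.7. None of these 8 narrow peaks was among the 111 with a p under 0.001. Whether reads from repeated sequence gathered at these narrow peaks was not tested. Among the broad ones, Hic1, a tumour suppressor of the same repressor family as Hic2, was covered over its start site by a peak of 4612 bp with 468 against 67.6 reads in the authors' deposited table. The widest of all, 10570 bp near Mid1-ps1 on the Y chromosome, had 4482 against 501 reads there, per the authors' deposited table.

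Lower peaks reached far less signal. The strongest lay in an intron of Prkdc, the catalytic subunit of DNA-dependent protein kinase, with 31.1 reads in the knockout and 102 in the wild type in the authors' deposited table. An intron of Cables1, a cyclin-dependent kinase partner, followed with 19.2 against 65.3 reads, and an exon of the transcription factor gene Usf3 with 11.1 against 54.9, per the authors' deposited table. A peak 14.3 kb upstream of Ccl17, a chemokine gene, had 4.06 against 41.9 reads in the authors' deposited table. Another 5 of the 10 strongest lower peaks were annotated to Tshz2, and an intronic peak of the netrin receptor gene Dcc made the tenth.

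Position relative to genes went with direction as well. Peaks annotated to promoters were higher in 69.8% of 663 cases, against 61.3% of 1602 intronic and 58.1% of 2921 distal intergenic peaks. Among promoter peaks the share was 77.2% of the 338 with a start site within 1 kb. It was 55.7% of 176 at 1 to 2 kb and 69.8% of 149 at 2 to 3 kb, so it did not change steadily with distance. Exonic peaks, 89 in all, were higher in 79.8% and those in 3′ UTRs, 44 in all, in 81.8%. The share was greatest where the peak held a start site: 127 of 139 such peaks were higher (91.4%), against 60.2% of the other 5235. These peaks were stronger, with a median overall log2 value of 4.44 against 2.74 over the table, and the comparison was not repeated within signal. They were also wider (median 922 bp against 398 bp over the table), so it was repeated within widths, a choice made after the values were seen. Among peaks under 600 bp, 34 of 41 with a start site inside were higher (82.9%) against 55.5% of 4225 without, and among peaks of 1000 bp or more, 62 of 63 (98.4%) against 92.3% of 286.

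Start sites under higher peaks were also rich in CpG. RefSeq start windows, 250 bases before to 50 after each start, were laid over the peaks: 101 windows of 84 genes fell under 77 higher peaks, and 10 windows under 10 lower peaks. The median window under a higher peak held 23 CpG (quartiles 11 and 34) and 59.4% held 20 or more. Under lower peaks the median was 3, the most was 12, and 0 of 10 windows held 20. For comparison the median over all 32851 windows was 7 with 26.5% at 20 or more, and windows under listed H3K9ac peaks had a median of 14 and those under listed H3K4me3 peaks, a mark of CpG-rich promoters, 25. With peaks under 600 bp alone the medians were 17 over 23 windows and 3 over 7. The peaks over the windows differed in strength and width as well as direction. Their median overall log2 value was 4.49 for higher and 3.16 for lower, and their median width 987 and 514 bp. The CpG count was not compared within signal. It was looked at after the directions were known, and 10 windows are few.

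**Figure D3:**
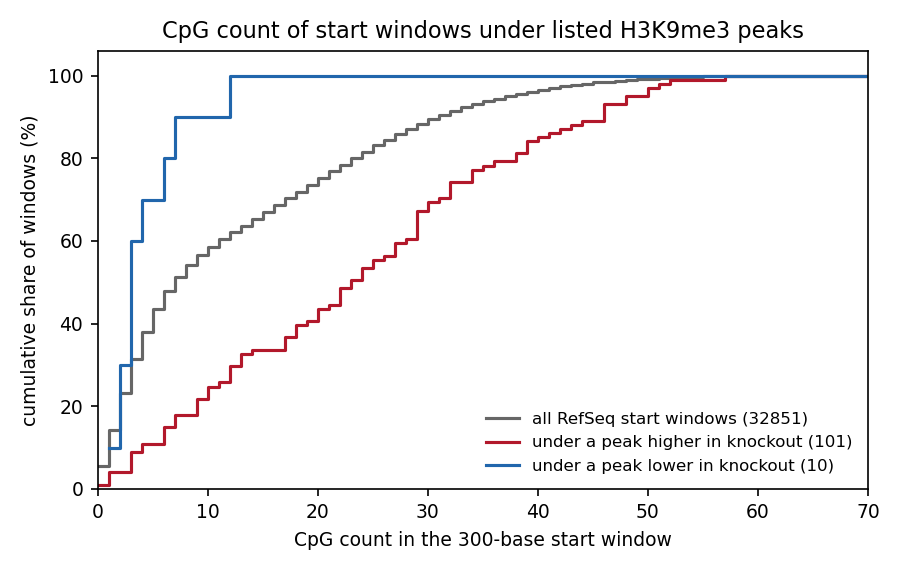
Cumulative share of RefSeq start windows (y axis, percent) by the number of CpG in the 300-base window (x axis), for all 32851 windows (grey), the 101 under a peak higher in the knockout (red) and the 10 under a lower peak (blue). The red line lies to the right of the grey one with a median of 23 against 7, and the blue line ends at 12.

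At promoters with reads in both genotypes, the higher genes of smallest p included channel, protease and ubiquitin-route genes. Dpp6, an accessory subunit of potassium channels, had 42.8 reads in the knockout and 1.27 in the wild type, 33.6-fold higher in the authors' deposited table (p = 0.000175, FDR 0.255). H2-Q7, a nonclassical class I histocompatibility gene, had 33.6 against 0.973 reads in the authors' deposited table (FDR 0.224). Lonrf2 reached 88.0 against 1.21 reads, 72.5-fold higher in the authors' deposited table, and its upstream sequence stands first above. Pcsk5, a proprotein convertase, had 51.6 against 1.38 reads and Peg12, an imprinted gene of the Prader-Willi region, 39.9 against 1.21, per the authors' deposited table. Wscd1, Arhgap22 (a GTPase-activating protein for Rac), Mid1 (an X-linked ubiquitin ligase), Rnf144a, Usp35 and Rtn1 (reticulon 1) were also among them, with folds of 12.9 to 30.1 by the authors' deposited table.

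Where the wild type stood at the floor, the promoters of smallest p were those of Kcns3, a modulatory potassium channel subunit, with 42.8 reads in the knockout, Sprr2a2, a cornified envelope protein, with 28.8, Dlx2, a homeobox factor, with 34.3, Lmo1 with 32.7 and Tle7, a Groucho-family corepressor, with 32.7, per the authors' deposited table. The wild-type value of each was 0.732 reads in the authors' deposited table.

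The 12 lower promoter genes of smallest p with reads in both genotypes carried fewer reads, and 3 of them were olfactory receptor genes. Olfr773, an olfactory receptor, had 0.959 reads in the knockout and 17.1 in the wild type in the authors' deposited table (p = 0.00108, FDR 1). Pde3a, the cyclic AMP phosphodiesterase of heart and vessel, had 1.57 against 14.4 reads, a 9.19-fold difference by the authors' deposited table. Mapk4, an atypical mitogen-activated protein kinase, had 1.75 against 20.1 reads and Tshz2 2.17 against 19.7 at its start, per the authors' deposited table. Hspb8, a small heat-shock protein, had 0.953 against 9.45 reads and Met, the hepatocyte growth factor receptor, 0.953 against 9.71 in the authors' deposited table. Cyp2c53-ps, Tiam1 (a Rac exchange factor), Platr12, Ighv1-57, Olfr771 and Olfr186 made up the 12, with folds of 8.82 to 13.5 downward by the authors' deposited table. With the knockout at the floor of 0.747 reads there were a second Tiam1 promoter peak with 21.7 wild-type reads, Insm2 with 17.8, Ass1 (argininosuccinate synthase, of the arginine and nitric oxide route) with 16.0, Rdh16f2 with 10.3 and Kif6 with 9.58, per the authors' deposited table.

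Listed peaks of 1 direction often stood side by side. Neighbouring listed peaks at most 10 kb apart shared a direction in 89.4% of 584 pairs, those 50 to 100 kb apart in 68.4% of 563, and those over 1000 kb apart in 51.7% of 772. Over all 5352 pairs the share was 65.9%. Unrelated neighbours would give 59.5%, from the direction shares of each chromosome. Joining neighbours of 1 direction within 100 kb gave 3884 runs, of which 61 held 5 or more peaks (45 higher with 548 peaks, 16 lower with 244) over a median length of 208 kb. Peaks in these runs were stronger and wider than the rest, with a median overall log2 value of 3.29 against 2.68 and a median width of 590 against 383.5 bp. Of the 117 peaks with an FDR under 1, 57 lay in them. All 117 had an overall log2 value of at least 3.6, so this count is not separate from the stronger signal in the runs. Neighbouring peaks are not independent, and how many separate chromatin domains the runs stand for was not measured.

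The longest run by peaks was lower in the knockout: 119 peaks over 635 kb around Tshz2 (chromosome 2, 169344033 to 169979065), with medians of 1.75 reads in the knockout and 17.9 in the wild type and log2 differences of -2.27 to -4.61 over the 98 peaks above the floor. Here 52 of the 119 had a p under 0.01, and the knockout stood at the floor in 21. A further lower run of 10 peaks lay just before it on the same chromosome (169072583 to 169209867). The next lower runs were those beside n-R5s168 (16 peaks, chromosome 6), over Tiam1 (14 peaks, chromosome 16), and over Pced1b (10 peaks, chromosome 15), the last at a median log2 difference of -3.09. An unnamed stretch of predicted genes on chromosome 6 held another 11 peaks.

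Higher runs were more numerous and reached higher signal. A gene-poor stretch of chromosome 5 beside the pseudogene Rps16-ps2 held 43 peaks over 244 kb (129122177 to 129365735), with medians of 16.9 reads in the knockout and 1.25 in the wild type. Zfp423, a zinc-finger factor of adipocyte and neural precursors, lay in 43 higher peaks over 355 kb of chromosome 8, with median log2 values of 4.32 in the knockout and 0.87 in the wild type. On chromosome 12 a run of 30 peaks over 375 kb reached from Tcl1 past Tunar to the bradykinin receptor genes Bdkrb2 and Bdkrb1, with medians of 35.3 against 4.53 reads. Another 30 peaks over 401 kb of chromosome 2 ran from Tfap2c, an AP-2 factor, to Bmp7, a bone morphogenetic protein, with median log2 values of 4.32 against 1.38. The fifth, 25 peaks from Ccl1 to Tmem132e on chromosome 11, had medians of 26.7 against 2.64 reads. The Tfap2c to Bmp7 run and the Tshz2 run thus lay 2534 kb apart on chromosome 2 with opposite directions. Further long higher runs covered Grik3 (a kainate receptor gene, 22 peaks), Klhdc7a and Igsf21 (21), Camta1 (18) and Kcnab2 with Nphp4 (14), all on chromosome 4, and Mid1-ps1 on the Y chromosome (18).

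**Figure D4:**
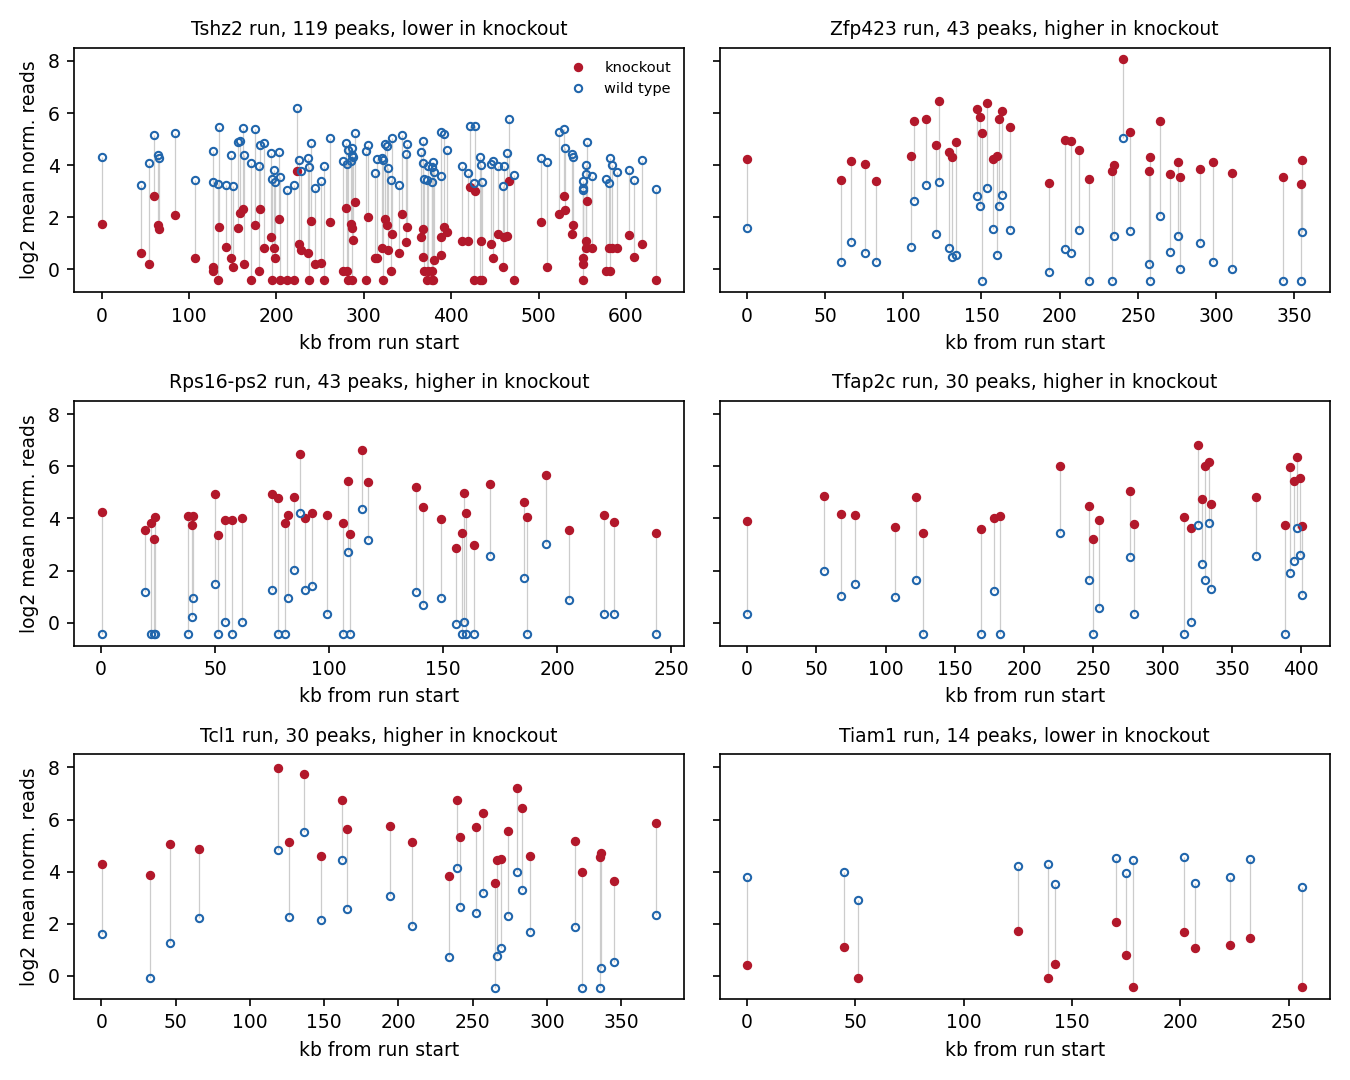
Log2 mean normalised reads (y axis) of every listed H3K9me3 peak in 6 runs, by distance in kb from the start of the run (x axis), with knockout values as filled red circles, wild-type values as open blue circles and a line joining the 2 values of a peak. In the Tshz2 run (119 peaks) and the Tiam1 run (14 peaks) every knockout value lies under its wild-type value, and in the other 4 runs every knockout value lies above it, as the joining of 1 direction sets.

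Counted by gene, 269 annotated genes held 3 or more listed peaks: 130 with every peak higher, 37 with every peak lower and 102 mixed. Among other genes with several peaks, Sdk1, an adhesion molecule of retinal synapses, had 9 higher and Epb41l3, a membrane skeleton protein, 6 higher, both with 0 lower. Cdh4, encoding R-cadherin, had 6 higher and 1 lower peak. Lower peaks predominated in Csnka2ip (5 of 7), Grm7, a metabotropic glutamate receptor gene (4 of 5), and Kif6, a kinesin gene (5 of 5).

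Direction varied by chromosome over a wide range. The share higher was 27.6% of 445 peaks on chromosome 6, 33.5% of 275 on chromosome 16 and 41.9% of 518 on chromosome 2, and it reached 84.4% of 243 on chromosome 13, 85.6% of 403 on chromosome 5 and 88.6% of 316 on chromosome 8. Of the 19 autosomes and X, 6 lay under 50%. With each run counted as 1 the shares went from 33.6% on chromosome 6 to 81.0% on chromosome 8, while chromosome 2 moved from 41.9% to 49.8%. Without runs of 5 or more peaks, chromosome 2 stood at 50.4% of 347 peaks, and 5 chromosomes were under 50%. At p under 0.01, however, 2 chromosomes were under 50%: chromosome 6 with 40.8% of 98 peaks and chromosome 2 with 47.5% of 158. Of these 158 peaks, 52 lay in the Tshz2 run, all lower. At that p chromosome 16 had 51.5% of 66 peaks, chromosome 10 52.2% of 46, chromosome 19 60% of 35 and chromosome 15 75% of 60. With an overall log2 value of at least 3, chromosomes 6 (21.5%), 16 (30.6%) and 2 (37.5%) were under 50% and chromosomes 10, 15 and 19 were not. Within 20 Mb windows, a split chosen after the values were seen, the extremes were the end of chromosome 6 from 140 Mb, with 2 of 57 peaks higher, and chromosome 8 from 80 to 100 Mb, with 101 of 103. H3K9ac, measured in other libraries from the same kinds of cells, had its own order of chromosomes: its share higher ran from 6.62% on X to 63.2% on chromosome 18, and across the 20 chromosomes it had a Pearson r of 0.06 and a Spearman rho of 0.04 with that of H3K9me3, given as a description over points that share the genotypes and treatment of the cells.

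**Figure D5:**
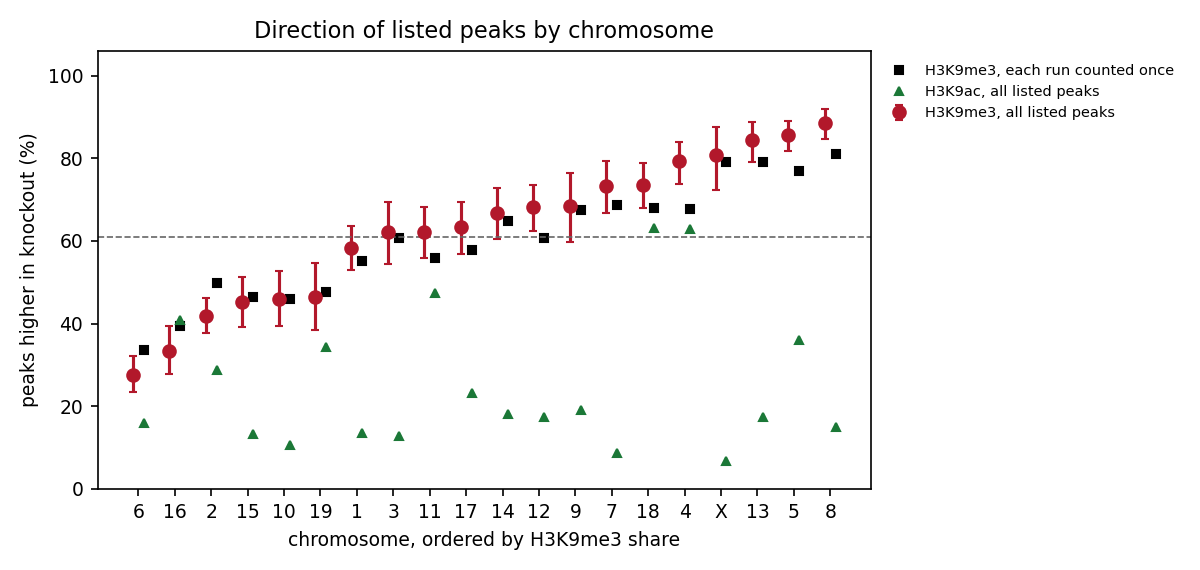
Share of listed peaks higher in the knockout (y axis, percent) for each autosome and X (x axis, ordered by the H3K9me3 share), as red circles with 95% exact binomial intervals for H3K9me3, black squares for H3K9me3 with each run of neighbours counted as 1, and green triangles for H3K9ac, with a dashed line at the H3K9me3 share over all chromosomes. The H3K9me3 share climbs from 27.6% on chromosome 6 to 88.6% on chromosome 8 and the H3K9ac triangles do not follow it.

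By gene, with 1 call each from the peak of smallest p, 432 of 619 genes with a promoter peak were higher (69.8%) at a median log2 difference of 2.91, and so were 2387 of 3951 genes with any annotated peak (60.4%) at a median of 2.77. The gene lists are read against these shares, without a test.

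Few imprinted or germline genes had a listed peak. Most of these were higher, but so were 69.8% of all genes with a promoter peak and 60.4% of all genes with any peak. Such small counts cannot be set apart from those shares. Of 47 imprinted genes, 8 had a listed peak, 7 higher and 1 lower, and the 5 with a promoter peak were all higher. Zdbf2 had 41.6 reads in the knockout and 3.16 in the wild type at its start in the authors' deposited table. Meg3, the maternally expressed noncoding RNA of the Dlk1 locus, had 52.0 against 6.11 reads, and Mirg of the same cluster 11.8 against 1.71, per the authors' deposited table. H19, the maternal noncoding RNA next to Igf2, had 39.1 against 5.10 reads and Usp29 19.2 against 2.97 in the authors' deposited table. The lower member was the amino acid transporter gene Slc38a4, at a distal peak with 0.953 against 8.46 reads in the authors' deposited table. Among 44 germline genes, all 3 with a listed promoter peak were higher: Piwil1, of the piRNA route, had 282 against 48.8 reads over 7771 bp, Mael had 35.3 against 4.92, and Dppa3 had 10.2 with the wild type at the floor, per the authors' deposited table. Counted by peak, the germline genes had 4 listed peaks, 3 higher and 1 lower.

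Of the homeobox, Fox, Sox and T-box genes, 15 were higher and 5 lower over all peaks, where 60.4% of all genes were higher. At promoters 7 were higher and 1 lower, at a median log2 difference of 3.42, where 69.8% of all genes were higher. Such small counts cannot be set apart from those shares. Nkx2-1, a factor of lung, thyroid and forebrain, carried a promoter peak of 2313 bp with 209 against 19.8 reads, and Irx5, a factor of heart and limb, 156 against 7.31, per the authors' deposited table. Lhx8 had 47.5 against 7.21 reads and Isl2 28.8 against 2.64 in the authors' deposited table. The 1 lower at promoters was Six2, a kidney progenitor factor, with 2.36 against 17.1 reads in the authors' deposited table, and Foxp2 was lower at an intronic peak.

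Of ion channel and receptor genes of excitable cells, all 7 with a promoter peak were higher, at a median log2 difference of 3.85. Of all genes with a promoter peak 69.8% were higher, and 7 genes are few. Over all peaks 27 of the ion channel and receptor genes were higher and 16 lower (62.8%), near the 60.4% of all genes. The neighbouring GABA receptor genes Gabrg3 and Gabra5 had 36.8 and 68.1 reads in the knockout, against the floor and 4.72 in the wild type, in the authors' deposited table. Grik3 had 104 against 8.75 reads at its start in the authors' deposited table. Cacna2d3, a calcium channel subunit gene, had 26.7 reads with the wild type at the floor in the authors' deposited table. For synaptic adhesion and axon guidance genes the counts were 22 higher and 13 lower over all peaks, also near that share, and 3 and 1 at promoters.

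Vascular lists held few peaks. Beside the 0 of 20 contractile genes, 1 of 13 synthetic smooth muscle genes had a listed peak, Olr1, an oxidised lipoprotein receptor, with 3.29 against 20.1 reads in the authors' deposited table. Of 38 angiotensin and vasoactive signalling genes 10 had a peak, 5 higher and 5 lower: the promoters of Pde3a and Mapk4 and an intron of Nr3c2, the mineralocorticoid receptor, were lower, and an intron of Prkg1, the cyclic GMP-dependent kinase, was higher with 8.22 reads and the wild type at the floor, per the authors' deposited table. Extracellular matrix genes had 6 higher and 3 lower of 55, with an intron of Lox, a collagen cross-linking oxidase, higher and an intron of Fbn2, a fibrillin, lower, each with the other genotype at the floor according to the authors' deposited table. For proteases and their inhibitors the counts were 5 higher and 1 lower of 38, led by Pcsk5. In the hydrogen sulfide list only Sqor, the mitochondrial sulfide oxidase, had peaks, 2 of them and both higher, at 9.65 reads with the wild type at the floor for the smaller p in the authors' deposited table. Bmp7 (62.3 against 3.78 reads) and Smad3 (11.3 against 1.71) were the TGF-beta and BMP genes with peaks, both intronic and higher in the authors' deposited table. Of 37 genes of the H3K9 methylation machinery, Atf7ip, a cofactor of the methyltransferase SETDB1, alone had a peak, lower with 3.73 against 18.4 reads in the authors' deposited table.

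The counts of large gene families are given without a test of any difference between them. Each count takes any peak annotated to a gene, at its promoter or far from it. Of all genes counted in this way, 60.4% were higher. MicroRNA genes were higher in 30 of 39 cases, olfactory receptor genes in 34 of 73, vomeronasal receptor genes in 30 of 51, Zfp zinc-finger genes in 12 of 28 (but 32 of their 49 peaks were higher, 21 of them at Zfp423) and solute carrier genes in 17 of 34. Lymphoid and natural killer receptor genes were higher in 4 of 13. Of the 39 microRNA genes, 7 had a promoter peak. Genes of these families lie in clusters on few chromosomes and some are near-identical copies whose reads can be misplaced, so their counts are uncertain. Markers of other cell types had few peaks: 2 of 10 endothelial (Vwf and Sox17, both higher), 1 of 10 leukocyte (Adgre1, higher), 1 of 7 neural crest or glial (Ngfr, lower), and 0 of 8 fibroblast and 0 of 7 adipocyte genes.

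Listed peaks of the other marks lay far from most of these. The median distance to the nearest listed H3K9ac peak was 462 kb from a higher and 410 kb from a lower H3K9me3 peak, and 1.77% and 2.86% lay within 10 kb of one. Inside the 45 long higher runs there were 4 listed H3K9ac peaks, all lower, and inside the 16 long lower runs 6, of which 3 were higher and 3 lower, while neither set held a listed H3K4me3 peak. The H3K9ac table leans lower as a whole, with 22.8% of its listed peaks higher, so the 4 lower peaks are near that background.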

How the data were processed

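The authors deposited 1 table per histone mark, with peaks annotated to genes, and per the submitters' processing notes CASAVA 1.4 and mm9 were used. Which peak caller and which differential test were used is not given in the labels or headers. The table's gene positions overlap those of GRCm38.p6 and 48.6% of listed H3K4me3 peaks lay over a start window of that build, so coordinates are printed as deposited and taken as GRCm38, possibly off by 1 base. Per the file headers, the values are the log2 mean of normalised reads in each genotype and in all libraries together, and a log2 fold change. The deposited p-values and FDR are the authors' own. Peak starts, ends and widths are deposited in base pairs, unit other. The fold change equalled knockout minus wild type within 0.01. Peaks with p under 0.0001 are not in the table used here.

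No test was run: with no per-sample values, direction was counted with 95% exact binomial intervals, in Python 3.11.15 with pandas 2.3.3 and scipy 1.17.1, after the functions were tested on simulated data. Reads are 2 to the power of the deposited value. A value under -0.1 was called the floor. Runs joined neighbours of 1 direction within 100 kb. The 29 gene lists, like the comparisons, were chosen with earlier results of these data known. Named genes are, per direction, 12 promoter genes of smallest p with both values above the floor and 5 with 1 value at it, 10 genes of most peaks, 10 peaks of highest value, 5 runs of most peaks and up to 4 genes per list, predicted genes with a number left out. Others, such as Hic1 and Tnfsf11, were chosen after their values were seen. Start windows come from RefSeq (GRCm38.p6). Alternatives were stricter p, FDR and signal, no floor peaks, other join distances, runs as 1 and narrower widths. 1 gene that the rule for named genes takes is not reported here.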

Additional observations from a re-analysis of the deposited data

How the results depend on the processing

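No paired analysis was possible because the deposited values are group values with no column per sample, and for the same reason no library could be left out. Of 35 alternatives 19 gave values near the first and 16 moved them. The share over all peaks, at promoters and at start sites stayed over 50% in each, but that of single chromosomes did not keep its side of 50%. The 61.0% of peaks higher became 74.4% at p under 0.01, 86.5% at p under 0.001, 59.2% without peaks at the floor, 71.8% at an overall log2 value of at least 3, 58.4% with runs counted as 1 and 59.6% without runs of 5 or more peaks. Listed peaks past the FDR threshold went from 0 to 6 at 0.25. The promoter share of 69.8% became 77.2% with a start site within 1 kb and 86.4% at p under 0.01. Chromosomes under 50% went from 6 to 2 at p under 0.01 (chromosomes 2 and 6, so that 10, 15, 16 and 19 changed side) and to 3 at an overall value of at least 3 (2, 6 and 16). Without runs of 5 or more peaks, 5 were under 50% and chromosome 2 stood at 50.4%. The 61 runs of 5 or more peaks became 34 when joined within 20 kb, 170 within 500 kb and 17 at p under 0.01. Among peaks with a start site inside, the 91.4% became 82.9% under 600 bp and 98.4% at p under 0.01. The difference in median CpG was 14 to 22 over its alternatives against 20. Low signal limits what can be read: the median listed peak had 6.68 normalised reads, and the largest changes of share came with thresholds on p or signal. The splits by start site, CpG, long runs and, for chromosomes, signal, and their alternatives, were added after seeing the data.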

Other observations

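A peak over the first 1047 bases of the mitochondrial genome, annotated to mt-Tf, a transfer RNA gene, had 62.3 normalised reads in the knockout with the wild type at the floor of 0.732 in the authors' deposited table. Mitochondrial DNA carries no histones. Gm10222, a gene on chromosome 1 (24611744 to 24614676), had 95.7 reads in the knockout with the wild type at the same floor in the authors' deposited table. At A530040E14Rik, also on chromosome 1, the knockout had 99.0 reads with the wild type at the floor in the authors' deposited table.

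On the Y chromosome, 10 listed peaks were annotated to Mid1-ps1, all higher, at 14.3 to 4482 reads in the knockout in the authors' deposited table. The X-linked Mid1 promoter peak was higher, with 124 against 8.63 reads in the authors' deposited table. Whether reads can be told apart between Mid1 and Mid1-ps1 was not tested.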
